A study of Mus musculus with 6 samples.

Results

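The Rtl1-antisense microRNAs are the products of 5 neighbouring genes, Mir431, Mir433, Mir127, Mir434 and Mir136, of the imprinted 12qF1 (Dlk1-Dio3) region of the mouse. They were chosen by name and position: every assay whose name, without its species prefix and part number, was miR-431, miR-433, miR-127, miR-434 or miR-136, alone or with a strand suffix (-3p, -5p or an asterisk). This rule found 11 of the 584 microRNA assays in the data, in 13 of 768 wells, 6 of the assays being on card A and 5 on card B. Of these, 10 are mouse-named and 1 is rat-named, and no assay for the neighbouring miR-432 or miR-3071 was found among the names. The study measured microRNAs in cell bodies of cortical projection neurons taken from mice at postnatal day 1. It compared 3 samples of callosal projection neurons (CPN), which the labels call control and which send axons to the other hemisphere, with 3 samples of subcerebral projection neurons (SCPN), which project to brainstem and spinal cord. The labels are silent on strain, genotype, sex and the means of purification. They also do not tell whether replicates are separate animals, and the p-values therefore cover only how these samples vary, part of which may be technical.

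MicroRNAs are short RNAs, cut from a hairpin, that guide silencing of messenger RNAs, mainly through their seed, bases 2 to 8. The Dlk1-Dio3 region is imprinted: protein genes such as Dlk1 and the retrotransposon-derived Rtl1 are expressed from the paternal chromosome, and long noncoding RNAs and microRNAs from the maternal one. The 5 hairpins lie on the strand opposite to Rtl1 and within it, so their mature strands are fully complementary to the Rtl1 message, and in mouse miR-127 and miR-136 are known to guide its cleavage. The microRNAs of this region are abundant in brain and in placenta.

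The mature sequences are shown because each assay reads 1 strand of 1 hairpin, and the assays below differ by strand. RefSeq gives them on the plus strand of chromosome 12 in GRCm38.p6, and 10 of the 11 assays were matched to an entry. The rat-named miR-136* assay was not. All matches were made by microRNA name, and the sequences that the assays read were not checked. In the names the cards use, an asterisk or its absence stands for an arm, which is given here after each name as the current one. Arms of names without -3p or -5p were assigned from general knowledge of the naming, as the data do not state them. Capitals mark the seed, 5′ to 3′.
miR-431 (5p, chr12:109590459-109590479): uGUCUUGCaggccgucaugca
miR-431* (3p, chr12:109590502-109590523): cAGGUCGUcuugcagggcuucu
miR-433 (3p, chr12:109591781-109591802): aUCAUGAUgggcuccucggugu
miR-433* (5p, chr12:109591729-109591750): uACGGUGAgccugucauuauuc
miR-127 (3p, chr12:109592888-109592909): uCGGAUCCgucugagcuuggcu
miR-127* (5p, chr12:109592854-109592875): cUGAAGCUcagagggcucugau
miR-434-3p (chr12:109594565-109594586): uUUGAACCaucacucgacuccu
miR-434-5p (chr12:109594528-109594549): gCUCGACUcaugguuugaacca
miR-136 (5p, chr12:109595331-109595352): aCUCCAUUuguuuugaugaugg
miR-136* (3p, chr12:109595366-109595387): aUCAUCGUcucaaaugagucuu

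All 10 seeds differ from each other, so the genes share a neighbourhood but no seed family. Each seed was carried by that microRNA alone among the 1679 mature microRNAs of the RefSeq table, where 72.1% of entries had a seed of their own. GC content ran from 36.4% in both arms of miR-136 to 59.1% in miR-127 and miR-431*. The longest run shared by a pair of members was 10 bases between the arms of miR-431 (GUCUUGCAGG), followed by 9 bases between the arms of miR-434 (UUUGAACCA). The 5 hairpins span 4942 bases, with gaps of 727 to 1590 bases between them. The hairpins of the genes with both arms measured in these samples are printed with those arms in capitals; the Mir136 hairpin lies opposite the Mir3071 hairpin on the minus strand.
Mir434 (chr12:109594506-109594599): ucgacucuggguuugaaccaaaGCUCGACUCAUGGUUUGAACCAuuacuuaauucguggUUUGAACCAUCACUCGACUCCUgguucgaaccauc
Mir136 (chr12:109595327-109595388): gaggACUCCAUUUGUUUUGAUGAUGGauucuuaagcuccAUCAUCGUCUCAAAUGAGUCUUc

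Each assay is a quantitative PCR, read as the threshold cycle (Ct), which is lower where there is more template. Levels are given here as the mean Ct of the assays seen in every sample (159 on card A, 65 on card B) minus the Ct of the assay, per sample and card. A level of 0 is thus the mean of these common assays, and 1 unit is a doubling at full PCR efficiency. A Ct of 35 or above, or no Ct, was set to 35, the limit, so such a level is an upper bound. Samples differed in mean card A Ct. It was 21.8 to 22.6 in the samples numbered 1 and 24.7 in CPN replicate 3. In CPN replicate 2 and SCPN replicates 2 and 3 it was 27.1 to 28.1. The authors' control RNAs on card A gave another order. Their Ct was 17.6 in CPN replicate 2, 19.2 in SCPN replicate 2 and 19.4 in SCPN replicate 3. Between 250 and 331 assays per sample had a Ct under 35. The limit therefore lies at different levels, from -13.22 in SCPN replicate 1 to -6.93 in CPN replicate 2 on card A. Of the 6 neuron markers listed, 5 were found on the cards by name and the other, miR-128a, under its newer name miR-128, and all 6 had a Ct under 35 in every sample.

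The Rtl1-antisense microRNAs had higher mean levels in SCPN than in CPN, but no assay passed the test after adjustment. All 8 assays that could be tested had a higher mean in SCPN (45.1% of all 306 tested assays did), with log2 differences from 1.05 for miR-127 to 4.05 for the rat-named miR-136* assay. In 5 of the 8, the lowest SCPN sample exceeded the highest CPN sample (8.82% of all tested assays), namely miR-127, both strands of miR-434, miR-136 and the rat-named miR-136* assay. The other 3, miR-431, miR-433 and the mouse-named miR-136* assay, had overlapping groups. The median difference of the 8 was 1.47, against -0.08 over all tested assays, and 1.16 over the 5 members seen in every sample. The 3 members not seen in every sample, miR-431 and both miR-136* assays, had a Ct under 35 in more SCPN than CPN samples. Their entry to the test thus rests in part on SCPN, the group where they were higher.

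With limma and Benjamini-Hochberg adjustment over all 306 assays, 0 of the 8 passed 0.05, as did 0% of all assays (adjusted p 0.324 to 0.81 for the members). At an unadjusted p under 0.05, 2 members were higher in SCPN, miR-136 and the rat-named miR-136* assay, where 6.54% of all tested assays were. When the same-numbered samples were fitted as pairs (the replicate block), a pairing the labels do not state, 5 members had such a p. Of all 306 tested assays, 25 without the block (20 higher and 5 lower in SCPN) and 51 with it had one. The 51 were not split by direction, so no like share stands beside the 5 members, all higher in SCPN. With the block, limma adjusted p for the members was 0.133 to 0.448. In the exact two-sided permutation test the 5 assays with separate groups had a p of 0.1, the smallest possible with 3 against 3. Separate groups always give this p, so it adds nothing to the separation. By the same permutation test miR-431 and miR-433 had 0.3, and the mouse-named miR-136* assay had 0.5. As these are bulk samples, more of the cells that hold a microRNA and more of it per cell cannot be told apart.

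**Figure D1:**
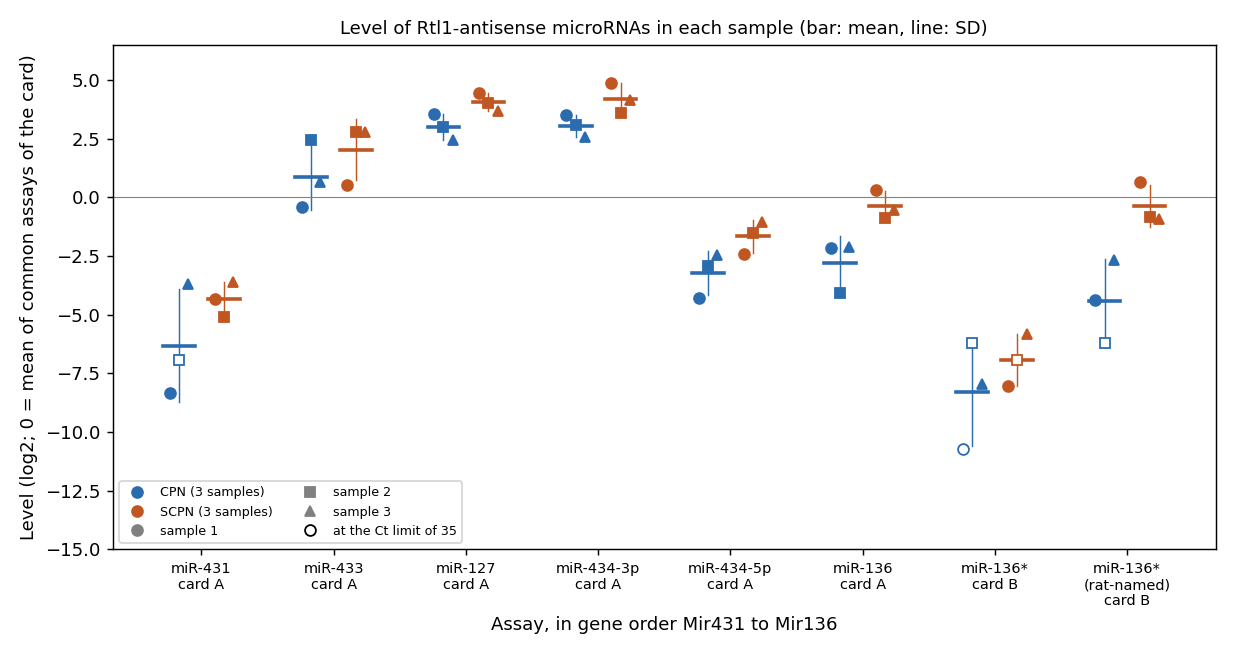
Level (log2, vertical axis) of the 8 tested Rtl1-antisense assays in each of the 3 CPN (blue) and 3 SCPN (orange) samples; bars are group means, lines the SD, shapes the sample number and open symbols values at the Ct limit. The orange points lie wholly above the blue ones for miR-127, miR-434-3p, miR-434-5p, miR-136 and the rat-named miR-136* assay, while miR-431, miR-433 and the mouse-named miR-136* assay overlap.

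The abundant members, miR-127 and miR-434-3p, stood at nearly the same level in each sample. MiR-127, known to restrain Rtl1 in mouse placenta, had levels of 3.56, 2.97 and 2.43 in CPN replicates 1 to 3 and of 4.44, 4.0 and 3.68 in SCPN replicates 1 to 3. The lowest SCPN sample was above the highest CPN sample by a margin smaller than the spread within either group. The CPN mean was 2.99 ± 0.56 and the SCPN mean 4.04 ± 0.38 (SD over 3 samples), which is a log2 difference of 1.05 ± 0.58 (SE) or 2.07-fold, with a limma adjusted p of 0.765.

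MiR-434-3p, the strand of Mir434 with the earlier Ct, had levels of 3.51, 3.07 and 2.55 in CPN and of 4.88, 3.60 and 4.12 in SCPN, replicates 1 to 3 each. SCPN replicate 2 was only just above CPN replicate 1. The group means of 3.04 ± 0.48 and 4.20 ± 0.65 (SD over 3 samples) were apart by 1.16 ± 0.61 (SE) on the log2 scale, or 2.23-fold, with a limma adjusted p of 0.733. Among the 208 tested card A assays miR-434-3p ranked 31 by mean level in CPN and 21 in SCPN, and miR-127 ranked 33 and 23.

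The other strand, miR-434-5p, was far lower in level but moved the same way. Its levels were -4.29, -2.93 and -2.46 in CPN and -2.42, -1.51 and -1.05 in SCPN, replicates 1 to 3. The groups were separate only by the small gap between CPN replicate 3 and SCPN replicate 1. The log2 difference was 1.57 ± 0.71 (SE), 2.97-fold, with a limma adjusted p of 0.60, and it fell to 1.04 when CPN replicate 1 was left out.

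MiR-136, the member nearest to Rian at the downstream end of the group, had the widest gap between groups among the card A members. Its levels were -2.16, -4.09 and -2.13 in CPN and 0.32, -0.88 and -0.55 in SCPN, replicates 1 to 3. Each SCPN sample was more than 1 unit above each CPN sample. Its means of -2.79 ± 1.12 and -0.37 ± 0.62 (SD over 3 samples) were apart by 2.42 ± 0.74 (SE) on the log2 scale, or 5.36-fold. Its unadjusted limma p of 0.0128 was the 8th smallest of the 306, with an adjusted p of 0.399. The difference was 1.71 without CPN replicate 2, the sample with the latest mean Ct, and between 2.08 and 2.76 without any other sample.

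By name, 2 assays of card B read the opposite strand of the same hairpin, miR-136*, and they gave unlike values. The sequence that either assay reads was not checked. The rat-named assay had a Ct of 28.6 and 29.1 in CPN replicates 1 and 3, no Ct in CPN replicate 2, and 22.9, 28.9 and 29.3 in SCPN replicates 1 to 3. As levels these were -4.39, at most -6.20 and -2.67 for CPN replicates 1 to 3, against 0.66, -0.85 and -0.92 in SCPN. Every SCPN sample was thus well above CPN, and because CPN replicate 2 is an upper bound, it makes a lower bound of the log2 difference of 4.05 ± 0.98 (SE), the second largest of all tested assays, with a limma adjusted p of 0.324. Without CPN replicate 2 it was 3.08.

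The mouse-named miR-136* assay, in 2 wells, gave a Ct in far fewer samples. In CPN it was seen in replicate 3 alone, in 1 well at a Ct of 34.4, and in SCPN in replicate 1 at 31.6 and 31.7 and in replicate 3 in 1 well at 34.2. Thus CPN replicate 1 and SCPN replicate 2 had no Ct here while the rat-named assay read 28.6 and 28.9 in them, and in SCPN replicate 1 the mouse-named wells came more than 8 cycles later. Its difference of 1.37 ± 1.19 (SE, limma adjusted p 0.81) rests on bounds in 3 samples, was 0.15 when CPN replicate 1 was left out and 2.35 when CPN replicate 2 was, and could not be tested without CPN replicate 3 or SCPN replicates 1 or 3. Why these assays differ was not tested.

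MiR-431, known for promoting axon growth of sensory neurons in mouse, was the least abundant of the main strands. Its levels were -8.35, at most -6.93 and -3.68 in CPN and -4.32, -5.12 and -3.62 in SCPN, replicates 1 to 3. CPN replicate 3 was as high as the SCPN samples, and the other CPN samples were lower. The log2 difference of 1.97 ± 1.18 (SE, limma adjusted p 0.787) therefore turns on which CPN sample is used: leaving out CPN replicate 1 gave 0.95 and leaving out CPN replicate 3 gave 3.29. Sample weights gave 0.90 and a limit of Ct 32 gave 1.10.

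MiR-433 had levels of -0.43, 2.42 and 0.66 in CPN and 0.54, 2.76 and 2.78 in SCPN, replicates 1 to 3. CPN replicate 2 exceeded SCPN replicate 1, and the groups overlapped widely. The level was highest in the 3 samples with the latest mean Ct, CPN replicate 2 and SCPN replicates 2 and 3, and the part of template amount in it was not tested. The log2 difference was 1.14 ± 0.96 (SE) with a limma adjusted p of 0.81, and leaving out CPN replicate 1, CPN replicate 2 or SCPN replicate 1 gave 0.49, 1.85 and 1.89.

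The other strands of these hairpins were not detectable. MiR-431* and miR-433* had no Ct in any of the 6 samples. MiR-127* gave a Ct in 1 well of 1 sample, 35.2 in SCPN replicate 1, which is past the limit. These 3 assays have bounds alone in both groups and were not tested. On card B the limit lies between -11.40 and -6.20. The mouse-named miR-136* assay stood at -7.98 in CPN replicate 3, -8.05 in SCPN replicate 1 and -5.83 in SCPN replicate 3. Levels like those in CPN replicate 3 and SCPN replicate 1 would be missed in the samples with late Ct.

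**Figure D2:**
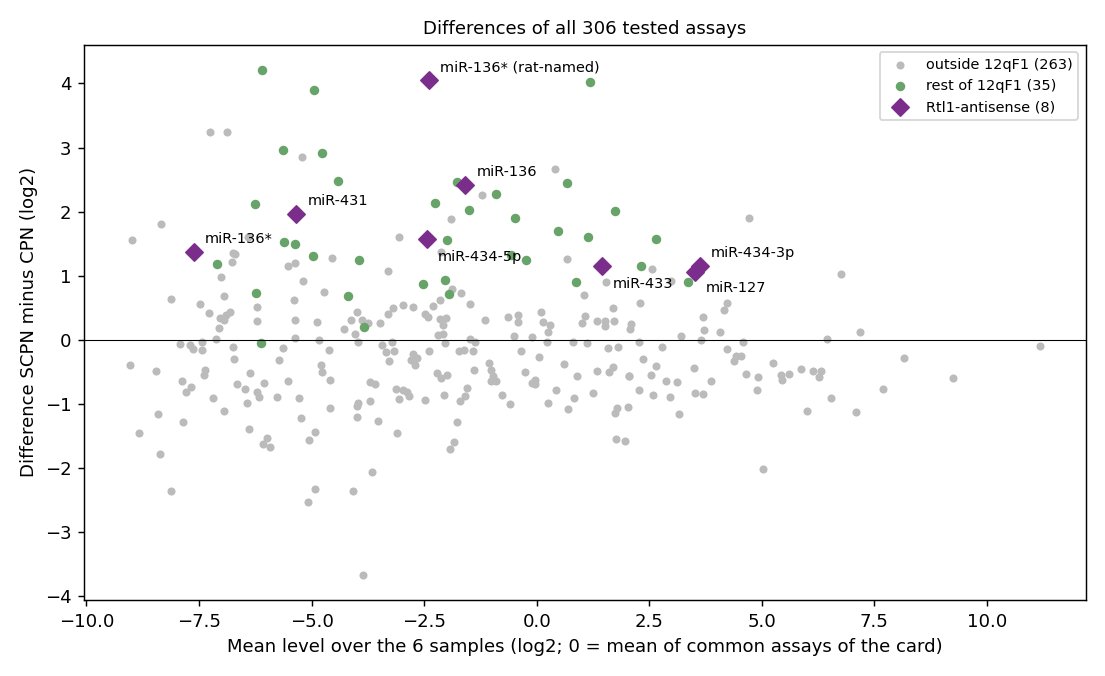
Log2 difference, SCPN minus CPN (vertical axis), against the mean level over the 6 samples (horizontal axis) for the 306 tested assays: 8 Rtl1-antisense (purple diamonds), 35 from the rest of 12qF1 (green) and 263 outside it (grey). All purple points lie above 0, from 1.05 to 4.05 on the vertical axis, among low and high assays alike.

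Compared within a sample, where the scaling cancels, the differences between members varied from sample to sample. Differences between pairs of the 5 card A members seen in every sample were compared between groups, giving 10 pairs. MiR-127 and miR-434-3p differed by -0.05 ± 0.09 in CPN and by -0.16 ± 0.48 in SCPN (SD over 3 samples), so their order is not settled beyond the spread. MiR-434-3p exceeded miR-136 by 5.67, 7.16 and 4.68 in CPN and by 4.56, 4.48 and 4.68 in SCPN, replicates 1 to 3. The SCPN values were close to each other and the CPN values were spread. The change of -1.26 had an exact permutation p of 0.1, the smallest that 3 against 3 samples allow, so that no pair could pass 0.05, and each of the 10 pairs had an adjusted p of 1. Between same-numbered samples the change was -1.11, -2.68 and -0.0012 for this pair, the last being nearly no change. It was -1.59, -2.19 and -0.32 for miR-127 minus miR-136. Changes were also negative in all 3 comparisons for miR-127 minus miR-434-5p and for miR-434-5p minus miR-136. Whether members differ from one another in their change thus cannot be settled with these samples. Whether assays have equal PCR efficiency is not known here, so the size of a gap between assays is not a ratio of molecules.

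The strands of miR-434 were separated by an amount that went with the sample number more than with the group. MiR-434-3p minus miR-434-5p was 7.80 (CPN) and 7.30 (SCPN) in the samples numbered 1, 6.0 and 5.11 in those numbered 2 and 5.01 and 5.17 in those numbered 3. The change between groups was -0.41 (exact permutation p 0.7). MiR-433 minus miR-127 likewise was -3.99 and -3.90 in the samples numbered 1, against -0.55 and -1.24 in those numbered 2 and -1.78 and -0.90 in those numbered 3, with a change of 0.09 (exact permutation p 0.9). The samples numbered 1 are also those with the earliest mean Ct. From the earliest to the latest mean card A Ct, miR-433 minus miR-127 was -3.90, -3.99, -1.78, -1.24, -0.90 and -0.55, and the samples numbered 3 differed in mean Ct (24.7 in CPN and 27.2 in SCPN). The part of template amount in these gaps was not tested.

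**Figure D3:**
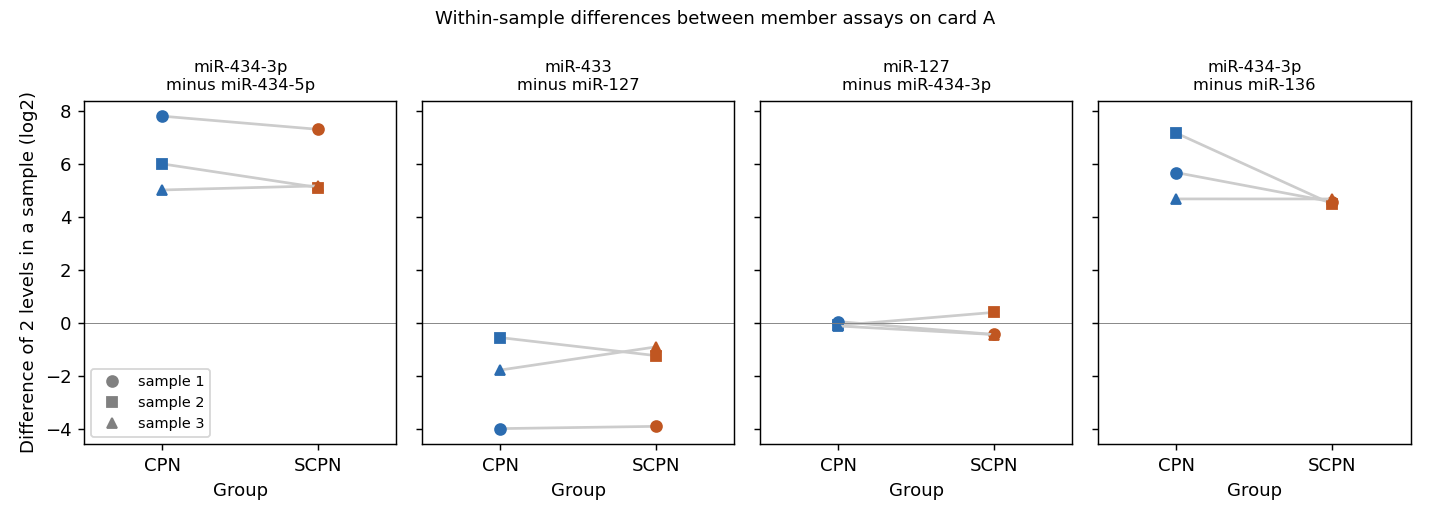
Difference between the levels of 2 assays in the same sample (log2, vertical axis) for 4 of the 10 pairs, in CPN and SCPN; shapes mark the sample number and grey lines join equal numbers. For miR-434-3p minus miR-434-5p and miR-433 minus miR-127 the samples numbered 1 stand apart in both groups, at 7.80 and 7.30 and at -3.99 and -3.90.

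Within same-numbered pairs SCPN was above CPN in all 3 pairs for 7 of the 8 tested assays (18.6% of all tested assays). The pair differences of miR-127 were 0.89, 1.02 and 1.25, those of miR-434-5p were 1.87, 1.42 and 1.42, and those of miR-136 were 2.48, 3.21 and 1.57. Those of miR-431 were 4.03, 1.81 and 0.07. For the mouse-named miR-136* assay the pair numbered 2 holds a bound on either side. Assays whose groups are separate can only give pairs of 1 direction, so for the 5 such members this adds nothing to the separation.

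The choice of scale sets the size of these differences. The members and the other 12qF1 assays are 28 of the 159 common assays that define 0 on card A. When the 12qF1 assays were taken out of the scale, each card A difference rose by 0.35, to 1.40 for miR-127 and 2.77 for miR-136. With the control RNAs that the authors used, card A differences rose by 1.24 and card B differences by 0.38, and 82.0% of all tested assays were then higher in SCPN, with a median of 0.87, against 45.1% and -0.08 here (56.5% and 0.20 with the scale outside 12qF1). On the scale used here the controls themselves were lower in SCPN on card A, by differences of -1.14 for U6 to -1.53 for U87. On card B, which holds the miR-136* assays, U6 differed by 1.18 and the other controls by -0.58 to -1.06. The authors' deposited table lists ratios, SCPN over CPN, of 4.91 for miR-127, 5.23 for miR-433, 5.28 for miR-434-3p, 7.02 for miR-434-5p, 10.7 for miR-431 and 12.7 for miR-136. In the authors' deposited table, miR-136 ranked 7th and miR-431 ranked 9th of 240 assays by this ratio. The order of these members is the same as with the scale used here, since 1 constant per card separates the scales; for miR-431 the authors' value also uses the Ct of 35.6 in CPN replicate 2, which is past the limit used here.

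**Figure D4:**
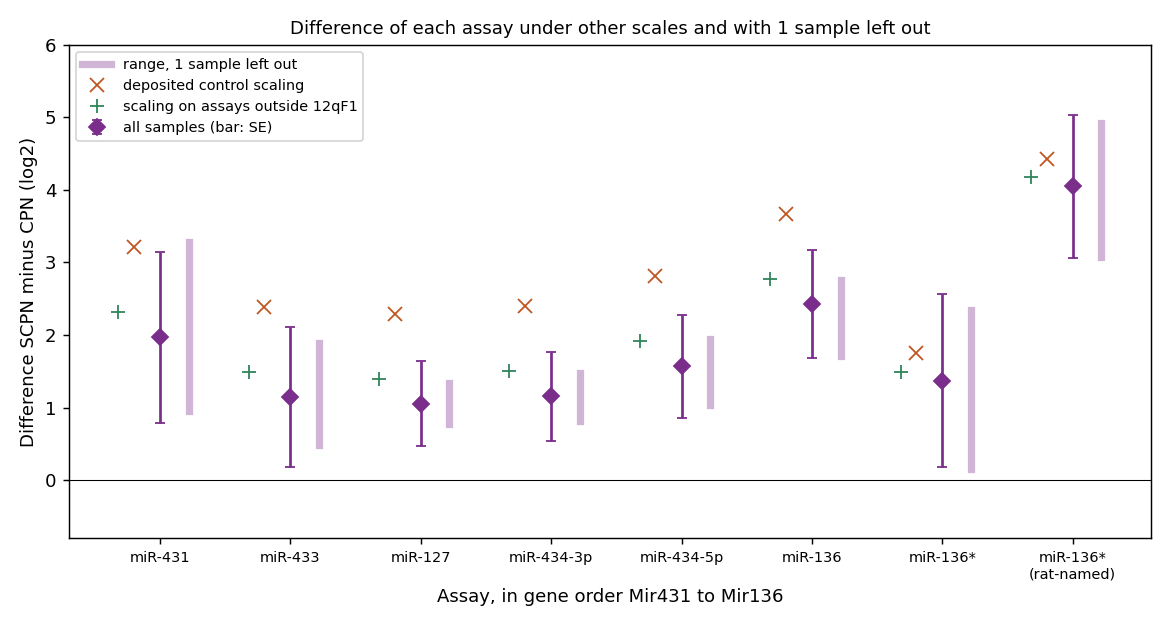
Log2 difference, SCPN minus CPN (vertical axis), of the 8 tested assays: diamonds with SE bars use all samples, pale bars span the values with 1 sample left out, crosses use the authors' control scaling and plus signs the scale without 12qF1 assays. Every value lies above 0, and the crosses lie 1.24 above the diamonds on card A.

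The rest of the 12qF1 region showed values like those of these members. In the stretch just upstream, Mir770 to Mir665, 5 of 5 tested assays had a higher mean in SCPN, with a median difference of 1.49 and 1 assay with separate groups. MiR-370, in the stretch between Mir136 and Mir379, differed by 1.15. In the large stretch from Mir379 to Mir410, 28 of 29 tested assays had a higher mean, with a median of 1.57 and 13 with separate groups. In each stretch 0 passed after adjustment by limma, and 1, 0 and 11 were higher at an unadjusted p under 0.05. The 263 assays outside the region had 96 higher and 167 lower, a median of -0.27. Of these 263, 8 had separate groups with SCPN above and 19 with SCPN below. At an unadjusted limma p under 0.05, 6 of them were higher and 5 lower. The members' median of 1.47 lies beside those of the neighbouring stretches, and no difference between stretches was tested.

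The assays most like the members were found by Pearson's r over the 6 samples with the mean level of the 5 members seen in every sample, among 219 other assays seen in every sample. In replicates 1 to 3 the members' mean stood at 0.04, 0.29 and 0.21 for CPN, below the 1.55, 1.59 and 1.80 for SCPN. The nearest were miR-376a (r = 0.982) and miR-666-5p (0.965) of the Mir379 to Mir410 stretch, then miR-138 (0.955) and miR-365 (0.953) from outside the region, and miR-485* (0.931) of card B. MiR-138, a microRNA of neurons, stood at 6.20, 6.09 and 6.48 in CPN and at 7.15, 7.42 and 7.27 in SCPN, and its difference was 1.02 ± 0.52 (SE, limma adjusted p 0.706). All these points share the group difference, the library and the scaling, so r is a description of these samples.

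Markers of other cells were read on the same cards. Of the 4 vascular assays, 3 had a higher mean in SCPN, with a median difference of 0.44, and their summed level ran from 1.69 to 2.47 in CPN and from 2.23 to 4.53 in SCPN. Their part in the members' difference was not tested. Of the microglia and blood assays 4 of 5 tested had a higher mean, with summed levels of 1.40 to 2.01 in CPN and 0.79 to 2.81 in SCPN, and miR-142-5p was never detected. Of the oligodendrocyte markers, miR-338-3p had a Ct under 35 in 2 samples of each group and differed by -0.55. The oligodendrocyte miR-219 and the erythroid miR-451 each had a Ct under 35 in 0 CPN samples and 1 SCPN sample. The glial miR-21 had one in 2 samples of each group. Its mean was lower in SCPN, at -5.84 against -5.19, but each mean holds a bound. The highest single level of miR-21 was -3.24, in SCPN replicate 1. The neuron assays miR-9, miR-9*, miR-124, miR-137 and miR-138 had a median difference of 0.12, or -0.08 with miR-128. MiR-128 differed by -0.55 (limma adjusted p 0.81). Its groups were only just separate, with a highest SCPN level of 2.506 and a lowest CPN level of 2.514, both in replicate 1.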

How the data were processed

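Per the series' design text, the assays are TaqMan Low Density Array rodent cards that follow miRBase release 10. The authors deposited raw Ct per well, Ct minus a control Ct constant per sample and card, and a ratio, SCPN over CPN, for 240 assays; thresholds and any preamplification are not stated there. From the raw Ct, wells were averaged over those with a Ct (2 to 13 assays per sample had a further well without one), values from 35 up were set to 35, and levels were scaled as the report states. Assays with a Ct under 35 in 3 or more samples entered limma 3.58.1 (lmFit, eBayes, two-sided) in R 4.3.3. This step was checked on simulated levels of equal spread with no Ct limit, so the check does not cover assays with bounds. No read depth exists; 3 samples per group limit the precision. Members, lists and naming rules were chosen with earlier results of these data known; every member assay is named, and alike assays by the rule given. The pairing joins samples with the same number, and the labels do not say that a number marks a shared litter or day. Same-numbered samples deviated together (correlations of deviations 0.552, 0.294 and 0.303 over 306 assays). The part of template amount in this was not tested. Sequences come from RefSeq (GRCm38.p6), by microRNA name.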

Additional observations from a re-analysis of the deposited data

How the results depend on the processing

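All 8 member differences stayed above 0 in each of the 19 alternatives in which they could be tested (144 values). The alternatives reuse the same samples, and with the deposited control scaling 82.0% of all tested assays were above 0. How many other assays stayed above 0 throughout was not counted. Of the 144 values, 0 passed a limma adjusted p of 0.05. The count over all assays was 1 with sample weights (miR-666-5p, no member) and 0 in the other alternatives, including the replicate block (51 at an unadjusted p under 0.05, against 25) and each sample left out (0 to 0). The members' median of 1.47 was 2.61 with the deposited control scaling, 2.66 with snoRNA scaling, 1.71 with the scale outside 12qF1, 1.21 with a limit of Ct 32, 1.89 with no limit, 1.16 with assays seen in all 6 samples, 1.16 with no filter, and 1.19 to 1.95 with 1 sample left out. Fewer members are tested under the limit of 32 and in all 6 samples (7 and 5), and more without a filter (11). The members added without a filter, miR-431*, miR-433* and miR-127*, lie at the limit in every sample. Their values there are differences between limits alone. The replicate block left it at 1.47.

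Within-sample contrasts changed sign with 1 sample left out, as ranges, for miR-433 minus miR-127 (-0.85 to 1.04), miR-433 minus miR-434-3p (-0.90 to 1.07), miR-433 minus miR-434-5p (-0.92 to 0.20), miR-433 minus miR-136 (-2.25 to 0.14), miR-127 minus miR-434-3p (-0.38 to 0.035), miR-127 minus miR-434-5p (-1.18 to 0.30) and miR-434-3p minus miR-434-5p (-1.13 to 0.35); the cause was not tested. The Ct limit binds for miR-431, miR-136* and the undetected strands.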
